A study of Mus musculus with 4 samples.

Results

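Abca5, Abca6, Abca8a, Abca8b and Abca9 are 5 neighbouring genes of the ABCA subfamily of ATP-binding cassette transporters. They were chosen by symbol from the 32285 genes of the count matrices, as one gene cluster, with the knowledge that Abca8a was higher in oligodendrocytes (OLs) of nude and BALB/c mice in these same libraries. The level of Abca8a in OLs is therefore given as a description with no test, and so are the levels of the other members there. The study profiled single nuclei of the microdissected lateral septum (LS), a forebrain region, from male mice aged 6 to 8 weeks by the labels (the methods give 8 weeks at purchase), to compare animals that differ in peripheral immunity. Each of its 4 libraries was a pool of tissue from 3 mice.

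The C57J cohort comprised 2 libraries of C57BL/6JNifdc mice, C57J 1 from batch 1 and C57J 2 from batch 2. The other cohort comprised 1 library of BALB/c nude mice, which lack mature T cells and are on the BALB/c background, and 1 library of BALB/c mice, both from batch 2. Strain background and immune state cannot be told apart between the cohorts, since both libraries set against C57J carry the BALB/c background. Because the libraries were pools, p-values rest on the spread between pools and not between animals. Within the cohorts that spread sets C57J 1 of batch 1 against C57J 2 of batch 2, and nude against BALB/c. Nude and BALB/c, each 1 library, had no replicate of their own and stood in as replicates of each other in the fit. By the study's methods, the C57J libraries came from separate sets of mice.

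ABCA transporters are large membrane proteins with a pair of transmembrane domains and a pair of ATP-binding domains, and most of the characterised members move phospholipids, sphingolipids or cholesterol across or out of membranes. Abca5 resides in lysosomes and late endosomes. Abca8a and Abca8b are the mouse counterparts of human ABCA8, which has been linked to cholesterol efflux and to sphingomyelin production in oligodendrocytes. Abca9 is induced during monocyte to macrophage differentiation in human cells and its message responds to cholesterol, and Abca6 is the least characterised of the group. In brain, OLs spend much of their lipid metabolism on the sphingolipids, galactolipids and cholesterol of myelin, and microglia take up and export lipid from debris.

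All 5 genes lay on the minus strand of chromosome 11 in GRCm38 (mm10), with no other protein-coding gene between them. In order along the chromosome they were Abca8b (chr11:109932190-109995845), Abca8a (chr11:110025634-110095978), Abca9 (chr11:110100749-110168196), Abca6 (chr11:110176820-110251776) and Abca5 (chr11:110269369-110337716), a span of 405.527 kb. The gaps between neighbours ran from 4.77 kb, between Abca8a and Abca9, to 29.788 kb, between Abca8b and Abca8a. Each gene had 39 exons in its longest coding transcript, with 4863 to 4929 coding bases. Abca8a and Abca8b were the closest pair, with 73.54% identity over their aligned coding bases and a longest exact match of 97 bases. Of the 31-base stretches of the Abca8a transcript, 3.274% also occurred in Abca8b, and none of these lay after the coding sequence, the end that a 3′ assay reads from spliced messages. Abca5 was the most distant, with 55.93% to 56.95% identity to the others and no 31-base stretch in common. The antisense gene Gm11697 overlaps Abca8b, and it was at or below 0.776 CPM (UMIs, or unique molecular identifiers, of a gene per 1000000 UMIs of a class in a library) in OLs, OPCs, astrocytes, microglia and neurons of every library.

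Promoter sequences are shown because the members, although neighbours on 1 strand, were read in different cell classes. RefSeq windows on GRCm38.p6, running from 250 bases before to 50 bases after the transcription start, were matched by symbol for 4 of the 5 members, and Abca6 had no entry. They are given 5′ to 3′ on the minus strand for Abca8b (chr11:109995796-109996095), Abca8a (chr11:110095888-110096187), Abca9 (chr11:110168104-110168403) and Abca5 (chr11:110337667-110337966), and capitals mark CACGTG (an E-box), GGGCGG (a GC box) and GAGGAA (the core bound by PU.1, a myeloid factor) read on either strand.
Abca8b: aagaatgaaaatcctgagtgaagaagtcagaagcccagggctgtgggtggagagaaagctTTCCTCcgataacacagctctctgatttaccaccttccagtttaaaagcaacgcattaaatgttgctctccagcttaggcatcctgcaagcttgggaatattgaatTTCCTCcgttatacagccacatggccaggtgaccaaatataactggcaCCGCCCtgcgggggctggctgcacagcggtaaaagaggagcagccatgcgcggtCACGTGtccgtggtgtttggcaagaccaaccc
Abca8a: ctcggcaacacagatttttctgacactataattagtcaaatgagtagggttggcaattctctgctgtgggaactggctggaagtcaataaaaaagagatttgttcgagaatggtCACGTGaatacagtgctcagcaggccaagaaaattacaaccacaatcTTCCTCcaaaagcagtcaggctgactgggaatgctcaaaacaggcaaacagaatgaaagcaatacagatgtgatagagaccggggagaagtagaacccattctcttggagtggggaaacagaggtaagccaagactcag
Abca9: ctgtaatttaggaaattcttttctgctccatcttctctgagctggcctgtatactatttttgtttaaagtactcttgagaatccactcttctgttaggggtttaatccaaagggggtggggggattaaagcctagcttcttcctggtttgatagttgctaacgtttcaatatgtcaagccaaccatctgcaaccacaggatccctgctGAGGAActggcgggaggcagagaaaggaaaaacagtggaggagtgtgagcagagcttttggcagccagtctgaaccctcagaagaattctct
Abca5: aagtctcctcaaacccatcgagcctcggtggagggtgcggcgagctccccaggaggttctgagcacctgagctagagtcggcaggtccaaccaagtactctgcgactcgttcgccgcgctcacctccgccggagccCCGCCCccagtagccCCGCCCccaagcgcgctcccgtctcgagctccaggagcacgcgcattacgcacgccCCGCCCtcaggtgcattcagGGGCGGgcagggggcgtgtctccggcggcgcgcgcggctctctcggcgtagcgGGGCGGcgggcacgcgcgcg

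The Abca5 window held 40 CG dinucleotides, more than 96.09% of all 32851 mouse promoter windows, and 5 GC boxes. Abca8b held 10 CG dinucleotides and 1 GC box, whereas Abca8a and Abca9 held 4 and 2 CG dinucleotides and no GC box, against a median of 7 over all windows. GGGCGG occurred in 35.66% of all windows. The E-box CACGTG, which occurred in 7.15% of them, was found in both Abca8 paralogs, at position 18 in Abca8b and at position -136 in Abca8a relative to the start. GAGGAA, found in 28.28% of windows, occurred in Abca8b, Abca8a and Abca9. ACAAAG (a SOX core, 18.71% of windows) and TATAAA (13.62%) were in none of the 4. These are matches of letters and no measure of binding.

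Nuclei numbered 12558 to 17025 per library before filtering, with 72912922 to 125998527 UMIs, each counted as 1 captured RNA molecule. After limits on quality and removal of predicted doublets, 49425 nuclei were kept, at a median of 4082 to 8390 UMIs, and BALB/c was the deepest library. Pairs of libraries shared 29 to 63 barcodes, at most 0.478% of the smaller library. Classes were built by clustering without the 5 members and named from marker genes, giving 5282 OLs, 1894 OL precursor cells (OPCs), 7538 astrocytes, 1349 microglia and 31098 neurons, with 44 fibroblasts among the small classes. Unless said otherwise, a level is in CPM of its class and library, with the exact 95% Poisson interval, which covers counting error only.

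Each member had its own class pattern. Abca8a was concentrated in OLs, which made up 10.7% of the nuclei and held 69.8% of its UMIs over all libraries. By library this share was 60.9% and 48.7% in C57J 1 and C57J 2, 64.3% in nude and 79.9% in BALB/c. Abca9 was concentrated in microglia, which were 2.73% of the nuclei and held 70.0% of its UMIs. Abca5 and Abca8b were read broadly and had 89.2% and 82.1% of their UMIs in neurons, which were 62.9% of the nuclei and the deepest class. Neurons also held most UMIs of all genes, at 66411217 of 78957945 in C57J 1 and 50142251 of 60086968 in C57J 2. In nude they held 57675837 of 66681018 and in BALB/c 83314668 of 102760693. The shares of Abca5 and Abca8b are thus no measure of enrichment in neurons. Abca6 had the fewest UMIs over all classes and, among the larger classes, was highest in OPCs and OLs.

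**Figure D1:**
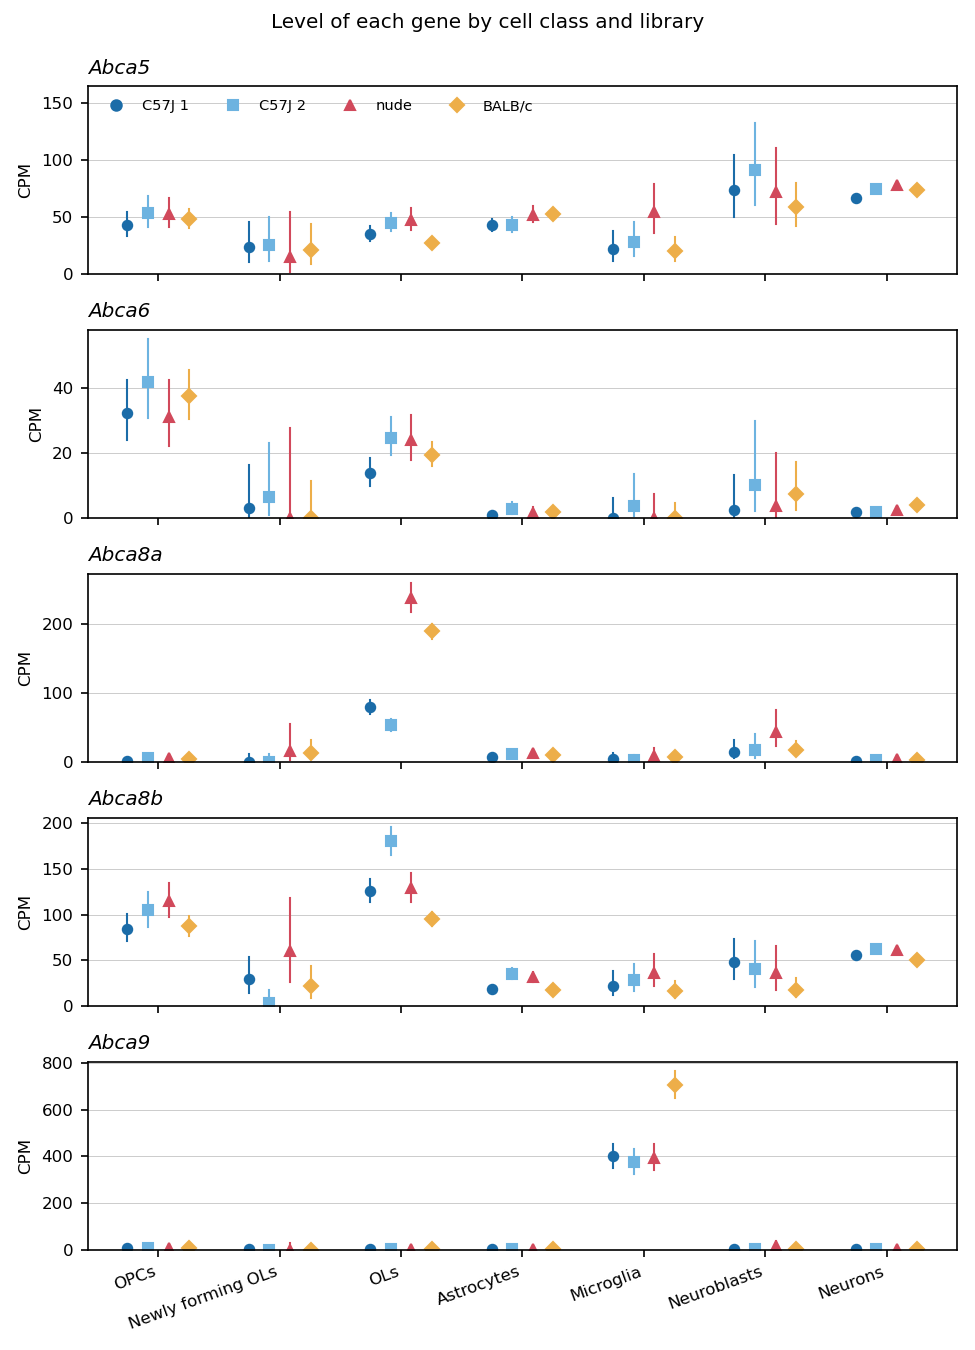
Level of each member (CPM, UMIs per 1000000 UMIs of the class; the vertical scale differs between panels) in the larger cell classes, 1 marker per library with its exact 95% Poisson interval. Abca8a stands out in OLs of nude (237) and BALB/c (189), Abca9 in microglia (375 to 707), and Abca5 lies at 66.6 to 78.3 in neurons.

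Abca8a in OLs was at 78.7 CPM in the first C57J library (95% interval 69.2 to 89.2, from 248 UMIs) and at 52.7 CPM in the second (44.7 to 61.8, from 152 UMIs). The nude library had 237 CPM (217 to 259, from 493 UMIs) and the BALB/c library 189 CPM (178 to 200, from 1138 UMIs). Both libraries of the BALB/c background lay above both C57J libraries, with no overlap of the intervals. The geometric mean over libraries was 3.28-fold higher, a log2 ratio of 1.72, while the C57J libraries differed from each other by -0.58 on the same scale (C57J 2 over C57J 1). Taken singly, nude was above the geometric mean of C57J by 1.88 and BALB/c by 1.55 (log2 ratio). In the fit of all genes, 8 of 12575 were called in OLs (0.0636%), and nothing is read from this for the members, since they were chosen on this contrast.

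In contrast, Abca8b, the closest paralog, was at 126 and 180 CPM in OLs of C57J 1 and C57J 2, at 129 in nude and at 94.8 in BALB/c. Its cohorts overlapped, since nude lay between the C57J libraries, and its log2 ratio was -0.44. Without scaling for length, the UMIs of Abca8a numbered 0.626 and 0.292 per UMI of Abca8b in C57J 1 and C57J 2, and 1.84 and 1.99 in nude and BALB/c. Thus Abca8b was the more frequently counted paralog over all OLs of both C57J libraries, and Abca8a over all OLs of nude and BALB/c. This order did not hold within every OL cluster, as given below.

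The cohorts overlapped in OLs for the other members. Abca5 was at 35.2 and 45.1 CPM in C57J 1 and C57J 2, at 47.7 in nude and at 27.2 in BALB/c. Abca6 was at 13.7, 24.6, 24.1 and 19.4 in the same order. Abca9 was at 1.27 to 3.85 in the 4 libraries, from 4 to 10 UMIs each, and did not pass the filter on low counts.

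**Figure D2:**
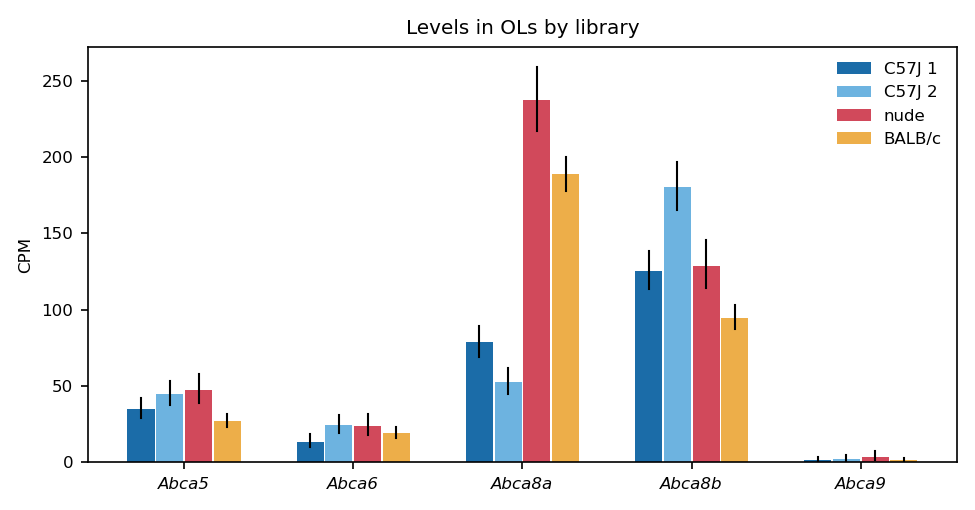
Levels of the 5 members in OLs (CPM) as bars from 0 for each of the 4 libraries, with exact 95% Poisson intervals as black lines. Abca8a is the member whose nude and BALB/c bars (237 and 189) both exceed both C57J bars (78.7 and 52.7), whereas Abca8b, Abca6 and Abca5 overlap.

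Shares of OL nuclei with a UMI showed the same order once each nucleus was thinned to 1000 UMIs, which left out 17, 21, 34 and 4 shallower OLs of C57J 1, C57J 2, nude and BALB/c. Abca8a was then detected in 7.55% and 5.86% of OLs in C57J 1 and C57J 2, 20.1% in nude and 16.4% in BALB/c. Before thinning these shares were 13.9%, 8.90%, 31.2% and 38.5%, at median depths of 2331.5, 1898.5, 1690 and 3790 UMIs, so nude had the largest share at equal depth although BALB/c had the largest as sequenced. In neurons, in which Abca8a is near 0, thinned shares were 0.184% to 0.290%, from median depths of 6019 to 12221.5 UMIs. Abca8a and Abca8b were not found in separate OLs: both were detected in 13, 9, 22 and 27 thinned nuclei of C57J 1, C57J 2, nude and BALB/c, and 9.89, 12.7, 26.0 and 22.6 would be found if each occurred without regard to the other.

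OLs separated into 4 clusters whose make-up differed between libraries. OL1, led by Il33, held 55.1%, 49.4% and 66.1% of the OLs of C57J 1, C57J 2 and nude but 7.19% of those of BALB/c, whereas OL2, led by Zfp804b, held 68.8% of the OLs of BALB/c and 2.78% to 7.19% of the others. Levels within clusters are therefore given beside those of all OLs. The clusters were not independent of the cohort contrast. OL2 was also led by Tgfbr2, called higher in OLs of nude and BALB/c (log2 fold change 4.28), and by Ndst4, and OL1 also by Ppp1cc. The study lists Ndst4 as upregulated and Ppp1cc as downregulated in OLs of both strains. Median depth was 1727.5 UMIs in OL1 and 3498.5 in OL2. Ratios within clusters are thus no control for make-up. In OL1, Abca8a was at 113 and 74.1 CPM in C57J 1 and C57J 2, at 297 in nude and at 215 in BALB/c, a log2 ratio of 1.47. The log2 ratio was 1.80 in OL2, 2.28 in OL3, which was led by Enpp6 and Slc5a11, and 0.89 in OL4, led by Synpr. In all 4 clusters nude and BALB/c both lay above both C57J libraries. Over all OLs, 12.3% of the tested genes lay above in that way and 20.8% below. These shares were not taken within clusters. Nothing is read from them for Abca8a, which was chosen on this contrast in the same OLs. The Abca8a levels of C57J 1 and C57J 2 in OL2 rested on 9 and 4 UMIs, and the intervals of C57J 1 (33.6 to 139) and nude (119 to 243) overlapped there. In OL4 the interval of C57J 1 (47.3 to 82.6) overlapped those of nude (69.7 to 150) and BALB/c (76.0 to 117). For Abca8b the log2 ratios in OL1 to OL4 were -0.02, -0.64, -0.53 and -0.40. In OL3 nude and BALB/c both lay below both C57J libraries for Abca8b (cohort means 71.1 against 102 CPM), and in the other clusters its cohorts overlapped. In OL4 Abca8b was at 126 to 267 CPM over the libraries, above the highest level of Abca8a there (104). OL4 held 20.9% and 26.2% of the OLs of C57J 1 and C57J 2, and 8.70% and 10.3% of those of nude and BALB/c.

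**Figure D3:**
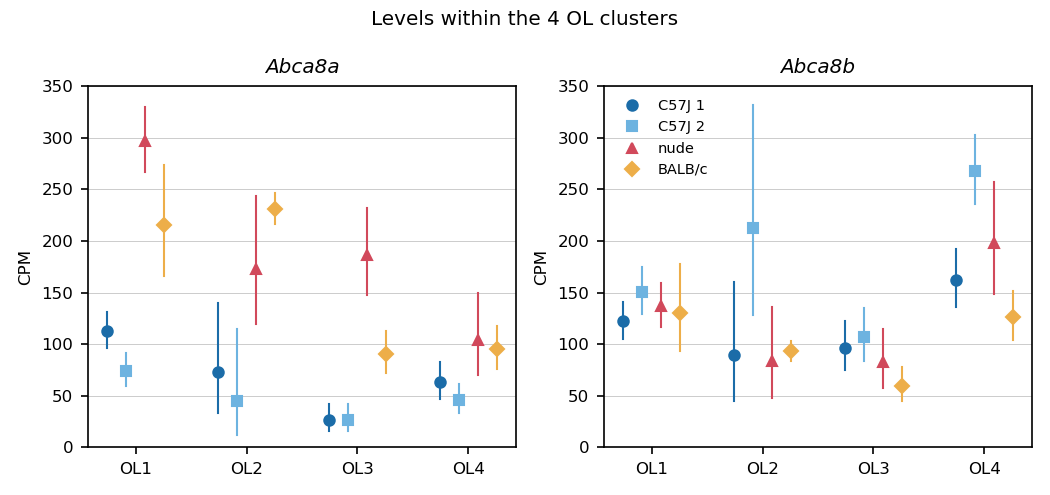
Levels of Abca8a and Abca8b (CPM, of the UMIs of the cluster) within OL1 to OL4, 1 marker per library with its exact 95% Poisson interval. Within each cluster the nude and BALB/c markers of Abca8a lie above both C57J markers, for example 297 and 215 against 113 and 74.1 in OL1.

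Abca8a was also set beside the sum of 8 OL markers, Mog, Mag, Mobp, Cldn11, Ermn, Aspa and Tmem125 among them, which in OLs were at 11442, 9866, 8059 and 13431 CPM in C57J 1, C57J 2, nude and BALB/c. As a percentage of this sum, Abca8a was at 0.688, 0.534, 2.94 and 1.40. Nude, with the lowest marker sum, thus had the highest Abca8a share, and BALB/c, with the highest sum, still lay above both C57J libraries. Neuron markers summed to 3000 and 3023 CPM in OLs of C57J 1 and C57J 2, 3950 in nude and 1556 in BALB/c. The part of these sums in the level of Abca8a was not tested.

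Along the OL lineage Abca8a was low before the OL stage. In OPCs it was at 1.29, 5.10, 4.66 and 3.63 CPM in C57J 1, C57J 2, nude and BALB/c. In the 229 newly forming OLs no UMI was counted in either C57J library, which by the limit of 3 counts allows up to 8.71 CPM in C57J 1 and 9.50 in C57J 2, and 2 and 4 UMIs were counted in nude and BALB/c. Abca8b was already at 84.4, 104, 115 and 87.0 in OPCs. In newly forming OLs it was at 29.0, 3.17, 60.1 and 21.3, from only 10, 1, 8 and 7 UMIs. Abca6 ran the other way from Abca8a, at 32.2, 41.6, 31.04 and 37.4 in OPCs against 13.7 to 24.6 in OLs, and had 0 to 2 UMIs per library in newly forming OLs. In OPCs, where the levels played no part in choosing the genes, 0 of the 3 members tested were called against 0.276% of 10875 genes. The log2 fold change of nude and BALB/c over C57J was 0.16 for Abca8b (standard error, SE, 0.19, adjusted p = 0.908), 0.15 for Abca5 (SE 0.21, adjusted p = 0.922) and 0.0042 for Abca6 (SE 0.25, adjusted p = 0.999). Here and below, adjusted p-values are from the quasi-likelihood F test of edgeR, by Benjamini and Hochberg over all genes tested in the class.

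Abca9 in microglia was at 400 CPM (351 to 454) in the first and 375 CPM (325 to 431) in the second C57J library, at 394 CPM (341 to 453) in the nude library and at 707 CPM (650 to 768) in the BALB/c library. BALB/c stood alone above the other 3 libraries, which lay within each other's intervals. The log2 fold change between cohorts was 0.57 (SE 0.38) with an adjusted p of 0.959, and 0 of 8872 genes were called in microglia (0%), although 455 had an unadjusted p below 0.05 (5.13%) and DESeq2 called 14. Microglial markers summed to 5970 and 4937 CPM in C57J 1 and C57J 2, 4427 in nude and 8508 in BALB/c, and neuron markers in the same nuclei to 4148, 4627, 5033 and 2301. As a percentage of the microglial marker sum, Abca9 was at 6.70, 7.60, 8.91 and 8.31. On this scale BALB/c no longer stood apart from nude, and both lay above both C57J libraries. The part of marker content in the level of Abca9 was not tested.

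**Figure D4:**
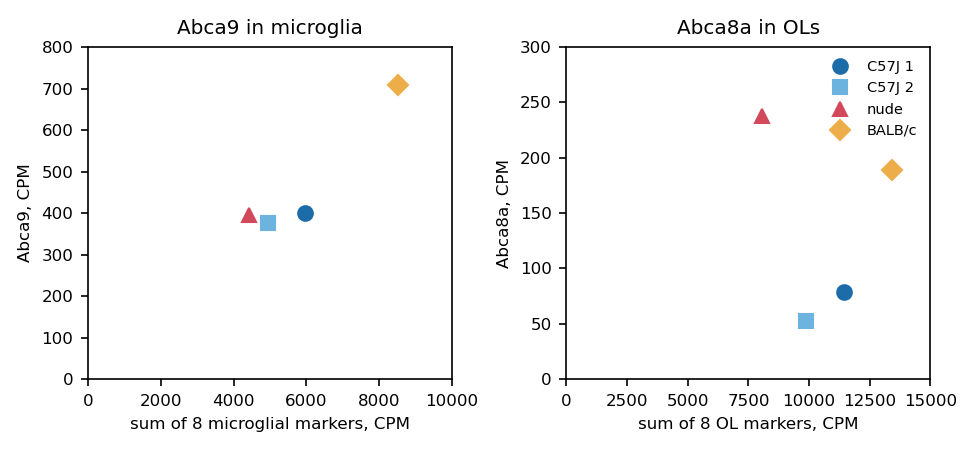
Abca9 in microglia against the summed microglial markers, and Abca8a in OLs against the summed OL markers, all in CPM, 1 marker per library. BALB/c is highest on both axes for Abca9 (707 at a marker sum of 8508), while for Abca8a nude has the highest level (237) at the lowest marker sum (8059).

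At 1000 UMIs per nucleus, with 3, 57, 36 and 0 shallower microglia left out, Abca9 was detected in 27.3%, 31.2%, 32.1% and 52.1% of microglia of C57J 1, C57J 2, nude and BALB/c, and in 0.0919% to 0.188% of neurons. The unthinned shares in microglia were 45.6%, 37.5%, 42.8% and 80.9%, at median depths of 1312 to 2667.5 UMIs. The other class with a high level was fibroblasts, in which Abca9 was at 327, 0, 415 and 321 CPM, from 5, 0, 3 and 37 UMIs. Only 1 to 32 fibroblasts were read per library, too few to order the libraries. In OLs, astrocytes and neurons Abca9 did not exceed 3.85 CPM. In each of these classes it was below the level that would accompany the microglial markers read there if both were present in their microglial proportion. In OPCs, at 4.51 to 5.95 CPM, it was 0.864, 0.668 and 0.586 times that level in C57J 1, C57J 2 and nude and 1.12 times in BALB/c. The remaining members in microglia were Abca5, with a log2 fold change of 0.56 (SE 0.55, adjusted p = 0.959), and Abca8b, with 0.06 (SE 0.51, adjusted p = 0.997).

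Abca5 was the most evenly spread member by levels as read. Neuron markers were read outside neurons too, in microglia at 2301 to 5033 CPM against 8783 to 10046 in neurons. The part of such neuronal RNA in the levels of Abca5 and Abca8b in other classes was not tested. In neurons Abca5 was at 66.6, 74.4, 78.3 and 73.4 CPM in C57J 1, C57J 2, nude and BALB/c. Among neurons the mean of the 4 libraries was highest in cholinergic neurons (110), followed by medial septal (102), striatal (98.2) and other neurons (90.4), and lowest in LS neurons (65.0). The first 3 did not differ beyond their spread, with ranges of 90.6 to 122, 90.6 to 111 and 81.4 to 122, whereas the LS neurons ranged from 59.3 to 70.0, below each of them. In astrocytes Abca5 was at 42.7 and 43.2 in C57J 1 and C57J 2, 52.1 in nude and 52.9 in BALB/c. The cohorts did not overlap there, as was so for 12% of all tested genes in that direction, and the log2 fold change of 0.37 (SE 0.16) did not pass adjustment (adjusted p = 0.674). In neurons the log2 fold change was 0.13 (SE 0.08, adjusted p = 0.588).

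Abca8b had 50.3 to 62.1 CPM in neurons, 17.6 to 34.7 in astrocytes and 16.1 to 36.0 in microglia. Its neuronal level was 9.09 to 33.8 times that which would accompany the OL markers read in neurons, unlike that of Abca8a. Abca8a in neurons was at 1.42, 1.77, 3.24 and 1.84 CPM, against 2.40, 2.00, 7.11 and 2.96 by the same OL marker proportion, so it was below it in 4 of 4 libraries. Abca8b did not differ detectably between cohorts in neurons, with a log2 fold change of -0.05 (SE 0.11, adjusted p = 0.891), nor in astrocytes, with -0.05 (SE 0.38, adjusted p = 0.986). In astrocytes C57J 1 and BALB/c were at 18.0 and 17.6 and C57J 2 and nude at 34.7 and 31.2, so the libraries of each cohort differed more from each other than the cohorts did.

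The low members in neurons lay higher in nude and BALB/c, without passing the test. Abca6 was at 1.72 and 1.74 CPM in C57J 1 and C57J 2, 2.43 in nude and 4.03 in BALB/c, which gave 0.93 as log2 fold change (SE 0.30, unadjusted p = 0.0192, adjusted p = 0.226). These levels were 0.487, 0.361, 0.666 and 1.04 times those that would accompany the OPC markers read in neurons, in the same order. The OPC markers summed to 1293, 1335, 1305 and 1253 CPM in neurons, against 397, 537, 495 and 191 CPM in astrocytes. Whether neurons express some of these markers themselves was not tested, so the ratios are no estimate of OPC RNA in neurons. The part of OPC RNA in the Abca6 levels was not tested. For Abca8a the log2 fold change was 0.69 (SE 0.33, adjusted p = 0.421), and for Abca9 it was 0.37 (SE 0.25, adjusted p = 0.593). The levels of these 3 of the 5 members had no overlap between cohorts, as did 19.2% of all tested neuronal genes in that direction. Their Poisson intervals did overlap between cohorts, though not for every library. For Abca6 the interval of BALB/c (3.61 to 4.49) lay above those of C57J 1 and C57J 2 (upper ends 2.06 and 2.14). For Abca8a that of nude (2.79 to 3.74) lay above them (upper ends 1.73 and 2.18). For Abca8a, C57J 2 (1.77, interval 1.43 to 2.18) and BALB/c (1.84, interval 1.56 to 2.15) were nearly level. In LS neurons alone the Abca8a cohorts overlapped, with BALB/c at 1.61 below C57J 2 at 1.84, and nude at 3.16. The levels of Abca6 and Abca9 stayed apart there. In astrocytes, Abca8a was at 7.43, 11.3, 12.5 and 9.73 CPM, against 6.80, 6.46, 22.2 and 8.86 by the OL marker proportion there, and its log2 fold change was 0.33 (SE 0.31, adjusted p = 0.854). Abca9 in astrocytes had -0.15 (SE 0.45, adjusted p = 0.959). Of the 15 tests of members outside OLs, 0 were called, against 0.276% of all genes in OPCs, 0.0637% in astrocytes, 0% in microglia and 1.99% in neurons. Abca6 in neurons was the 1 with an unadjusted p below 0.05, as were 14.2% of all neuronal genes, and by DESeq2 0 of the 15 were called.

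**Figure D5:**
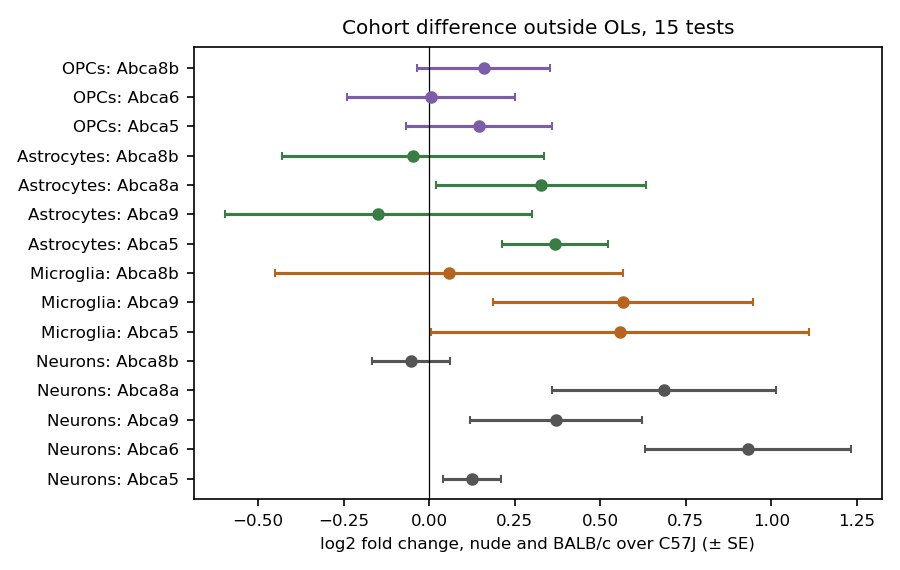
Log2 fold change of nude and BALB/c over C57J (± SE) for each member that could be fitted in OPCs, astrocytes, microglia and neurons, 15 tests in all. The largest is Abca6 in neurons (0.93), and none passed adjustment over all genes.

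To compare levels between genes, CPM were divided by the length of each gene in kb, since nuclear RNA holds introns and longer genes can be sampled more often. On this scale Abca9 in microglia was the highest value of the cluster among the larger classes, at a mean of 6.96 (range over libraries 5.56 to 10.5). In OLs the order of means was Abca8b (2.08), Abca8a (1.98), Abca5 (0.568), Abca6 (0.273) and Abca9 (0.0341). The first pair overlapped, with ranges of 1.49 to 2.83 for Abca8b and 0.749 to 3.37 for Abca8a, the latter spread by cohort. In OPCs it was Abca8b (1.53), Abca5 (0.719), Abca6 (0.474), Abca9 (0.0748) and Abca8a (0.0521), and in neurons Abca5 (1.07) and Abca8b (0.898) stood above the rest. Gene lengths differed little, from 63.656 kb for Abca8b to 74.957 kb for Abca6.

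Genes with the most similar pattern were taken over 34 sums of a class in a library. For Abca9 these were Ctsh, a lysosomal protease (Pearson r of log2 levels 0.935), Adap2os (0.924) and Stat6, the transcription factor activated by interleukin 4 (0.924). For Abca8a they were Kat2b (0.766), Kif13b (0.763) and Retreg3 (0.755), none of which had separate cohorts in OLs. Abca5 was nearest to Itgbl1 (0.851), Gm27188 (0.824) and Rbms3 (0.797). Abca8b was nearest to Kcna6 (0.786), Rcan2 (0.767) and Rabgap1l (0.754), and Abca6 to Gm29502 (0.793), Rbpjl (0.760) and Kcnu1 (0.714). Between members r ran from -0.08 to 0.46, the highest for Abca6 with Abca8b. Points of 1 library or class share depth and nuclei, so these values describe likeness only.

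The genes on either side of the cluster were also examined. Within 500 kb lay 8 other protein-coding genes, the nearest of which was Map2k6, a kinase gene 61.406 kb away. In OLs none of the 7 that could be fitted was called. Amz2 was at 28.9 and 31.9 CPM in C57J 1 and C57J 2, 16.4 in nude and 18.6 in BALB/c, which gave -0.72 as log2 fold change (SE 0.24, adjusted p = 0.794), opposite in sign to that of Abca8a. Amz2 also had a negative log2 fold change in microglia (-0.94), astrocytes (-0.43), neurons (-0.34) and OPCs (-0.05). Fam20a had -0.96 in OLs (SE 0.44, adjusted p = 0.978), at 3.15 to 10.1 CPM. In astrocytes it was at 192 to 355 CPM with -0.05, and the part of astrocyte RNA in its OL level was not tested. In OLs Prkar1a had -0.31, Arsg -0.07 and Map2k6 -0.04, while Slc16a6 (0.29, SE 0.56) and Wipi1 (0.13, SE 0.29) had the same sign as Abca8a.

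Other lipid genes of OLs gave no call, in a fit that called 8 of all 12575 genes (0.0636%). With so few calls, a count of 0 in a short list, here and below, does not set Abca8a apart from its genes. Of the other ABCA genes, 4 of 11 were expressed enough to be tested, and 0 were called. Abca2, a transporter known to be abundant in OLs, was at 401 and 274 CPM in C57J 1 and C57J 2, 258 in nude and 304 in BALB/c, which gave -0.20 as log2 fold change (SE 0.29). Abca1, the cholesterol exporter that loads apolipoproteins, had 0.18 (SE 0.21), and Abca3 had 0.16 (SE 0.20). Nude and BALB/c both lay above both C57J libraries for Abca1 and Abca3, as for 12.3% of all tested genes, and 0 of the 4 lay below. Among 9 other ABC lipid transporters 0 were called, with Abcd2, a peroxisomal importer of very long chain fatty acids, at -0.84 (SE 0.49), Abcg2 at -0.76 (SE 0.34) and Abcg4 at -0.37 (SE 0.40). Of 24 sphingolipid and galactolipid genes 0 were called, and their median log2 fold change was 0.02 against -0.01 for all genes. Asah2, a neutral ceramidase, had the largest value, 0.58 (SE 0.22, adjusted p = 0.871), ahead of Elovl7 (0.44) and Arsa (-0.39). It was the 1 gene of this list with nude and BALB/c both above both C57J libraries, and 5 had both below.

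Cholesterol genes had a median of -0.27 over 18 tested, of which 0 were called. Both nude and BALB/c lay below both C57J libraries for 10 of the 18, whereas 20.8% of all tested genes did. The list was written with earlier results of these data known, so the count is a description, and no test of the list was made. Insig1, which restrains sterol synthesis and is itself a sterol-responsive target, was at 46.0 and 52.0 CPM in C57J 1 and C57J 2, 28.9 in nude and 25.2 in BALB/c, which gave -0.81 as log2 fold change (SE 0.21, adjusted p = 0.535). Dhcr7, an enzyme of the last steps of cholesterol synthesis, had -0.65 (SE 0.26, adjusted p = 0.908). Of the 10 structural myelin genes 0 were called, with a median of 0.09. The largest differences were those of Opalin, at -1.07 (SE 0.22, adjusted p = 0.315), and Ermn, at 0.72 (SE 0.48), and Mag had -0.28 (SE 0.26).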

How the data were processed

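Nuclei of the LS were profiled in 4 libraries. The authors aligned 10x 3′ reads to mm10 with Cell Ranger 7.0.1 and deposited raw UMI counts per gene and nucleus. Whether introns were counted is not given in the sources used here. Reads of the BALB/c background were thus aligned to a C57BL/6J genome, and the effect of strain sequence differences was not tested. Starting from the deposited counts, nuclei with 200 to 6000 genes, 300 to 50000 UMIs and under 2% mitochondrial UMIs were kept, as in the study. The study's further limit on the ratio of log counts to log genes was not applied. The nuclei most like simulated doublets were then removed. Their number was set at 0.8% per 1000 nuclei, which came to 9.66% to 11.9% of a library. Clusters (scanpy 1.11.5, leidenalg 0.10.2) were made without the 5 members and 6 sex-linked genes and named from fixed markers.

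Levels are UMI counts per 1000000 UMIs (CPM) of a class in a library. UMIs were summed per class and library and fitted across all genes in edgeR 4.0.16 (R 4.3.3; TMM, filterByExpr, quasi-likelihood F test, no covariates), 2 C57J libraries against nude and BALB/c, and genes were called where the Benjamini-Hochberg adjusted p was under 0.05 and the log2 fold change over 0.5 in size. The log2 ratios are differences between cohorts in the mean log2 level of their libraries. Poisson and Clopper-Pearson intervals (95%) cover counting error only, and zeros allow up to 3 counts. Gene positions came from GENCODE vM21.

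Named genes were all members, the 3 genes most correlated with each (at least 200 UMIs, sums of at least 100000 UMIs), coding genes within 500 kb, and up to 3 genes of each list with the largest change in OLs. One gene that this rule named is not reported here, and 1 OL marker is counted in the sums without being named. Members and lists were chosen with earlier results of these data known. Alternatives were DESeq2 1.42.0, no filter, doublets kept, nuclei thinned to 1000 UMIs, stricter limits (500 genes, 1000 UMIs), nuclei assigned by markers one by one, and each library left out. The procedure was tested on simulated counts.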

Additional observations from a re-analysis of the deposited data

Results flagged for a closer look

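The cohort difference of Abca5 pointed in opposite directions between classes, with every library on one side in each. Its log2 ratio of nude and BALB/c over C57J was -0.44 in newly forming OLs (25 UMIs in all) and -0.34 in neuroblasts (118 UMIs), but 0.29 in astrocytes (1048 UMIs). In each of these classes the Poisson intervals of Abca5 overlapped between cohorts, and nude had 2 UMIs in newly forming OLs. In astrocytes, 12% of all tested genes had both nude and BALB/c above both C57J libraries. Abca6 also pointed in opposite directions between OL clusters, with a log2 ratio of -1.79 in OL4 against 0.52 in OL1 and 0.86 in OL2, and each value rested on few UMIs. These were 10, 15, 2 and 2 in OL4, 24, 36, 37 and 10 in OL1 and 1, 2, 5 and 89 in OL2, for C57J 1, C57J 2, nude and BALB/c. Over all OLs, 12.3% of tested genes had cohorts that did not overlap with C57J the lower and 20.8% with C57J the higher, and the shares within clusters were not computed. No such share is given for newly forming OLs or neuroblasts. The difference between these classes or clusters was not tested.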

How the results depend on the processing

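Abca8a in OLs kept its direction under every alternative run, with log2 ratios of 1.43 to 2.01 (nuclei thinned to 1000 UMIs 1.53, doublets kept 1.75). Within batch 2 alone, without C57J 1, it was 2.01. No analysis paired by batch was possible, because batch 1 held only C57J 1 and the cohorts shared only batch 2. Counts of called genes moved far more. In OLs the 8 called genes became 75 with DESeq2, 239 with no filter on low counts and 1 after thinning, and 0 to 597 when a library was left out (597 without nude, 28 without BALB/c, 1 without C57J 1 and 0 without C57J 2). In OPCs 30 became 186 with no filter, 61 with doublets kept and 17 after thinning, with 83 to 489 when a library was left out. In astrocytes 9 became 99 with DESeq2 and 484 with no filter, with 0 to 1232 when a library was left out. In microglia 0 became 14 with DESeq2, 83 with no filter, 21 with doublets kept and 1 after thinning, with 0 to 932 when a library was left out. In neurons 391 became 748 with DESeq2, 975 with no filter and 143 after thinning, with 99 to 1213 when a library was left out. In each class but neurons the highest of these came without nude, and in neurons without C57J 2. The cause was not tested.

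Over 145 refits of the 15 tests of members outside OLs, 129 kept their direction, 16 reversed and 0 became a call, the lowest adjusted p being 0.0516 for Abca9 in microglia without nude (log2 fold change 0.90, against 0.08 without BALB/c). The reversals were Abca6 in OPCs with DESeq2 (-0.0060) and after thinning (-0.23), Abca8b in astrocytes with nuclei assigned by markers (0.028), Abca8b in microglia with doublets kept (-0.21) and Abca8b in neurons after thinning (0.031). The rest came from leaving out a library, over which log2 fold changes ran from -0.0039 to 0.30 for Abca5 and from -0.20 to 0.18 for Abca6 in OPCs, from -0.45 to 0.48 for Abca8b and from -0.30 to 0.038 for Abca9 in astrocytes, from -0.29 to 1.17 for Abca5 and from -0.58 to 0.59 for Abca8b in microglia, and from -0.18 to 0.081 for Abca8b in neurons. With 1 library left out, the lone library of its group was assumed to vary like the others. At this depth the filter on low counts left Abca9 untested in OLs, Abca8a and Abca9 in OPCs, Abca6 in astrocytes, and Abca6 and Abca8a in microglia.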

Other observations

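The small vascular classes also held members of the cluster, on few UMIs. Abca8a was read in the 71 mural nuclei at 108 and 166 CPM in the C57J libraries, with 36.6 CPM in the BALB/c library and none in nude, from 3, 9, 2 and 0 UMIs, so in C57J its level there was above that in OLs, with intervals that overlap for C57J 1. The members and classes here were chosen after their values were seen. The 3 mural nuclei of nude allow a level of up to 490 CPM by the limit of 3 counts, which says nothing of a cohort difference. In the 32 fibroblasts of BALB/c, 4 members were read at 104 CPM or more, namely Abca9 (321, from 37 UMIs), Abca5 (156, from 18 UMIs), Abca8b (130, from 15 UMIs) and Abca8a (104, from 12 UMIs), while Abca6 had 2 UMIs. No other class of any library with over 100000 UMIs had 4 members at that level. That level was taken from these same values, and the limit left out the fibroblasts of every other library and all mural nuclei. The comparison thus does not set this class apart. Neuroblasts of C57J 1 and C57J 2 held Abca8a at 14.3 and 16.9 CPM, against 42.9 CPM (nude) and 17.6 CPM (BALB/c), from 5 to 12 UMIs each, and no test was made.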
